A study of Mus musculus with 6 samples.

Results

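This report describes the liver transcripts of 9 genes of retinoid storage and metabolism, *Lrat*, *Rbp4*, *Ttr*, *Rdh7*, *Rdh16*, *Dhrs3*, *Aldh1a1*, *Aldh1a2* and *Stra6l*, in mice whose hepatocytes lack the mitochondrial serine hydroxymethyltransferase SHMT2. The genes were chosen by symbol, through the Ensembl ID of each row of the count table, and were 9 of the 49671 genes in it. All 9 were found and all 9 passed the filter on low counts. Bulk RNA-seq had been done on livers of 3 SHMT2fl/fl and 3 SHMT2HKO male C57BL/6J mice. The SHMT2fl/fl controls carry loxP sites around exons 3 to 12 of *Shmt2* and no Cre, and are called WT in the labels. The SHMT2HKO mice, called KO in the labels, carry the same floxed alleles and Albumin-Cre, a driver used to target hepatocytes. From its protein blots the paper proposes that the non-parenchymal cells of the liver were spared. No cell type was sorted in these data, so the deletion in each cell type was not measured here. All 6 mice had received the AMLN diet (high in fat, fructose and cholesterol, and producing fatty liver with fibrosis) from 4 weeks of age for 18 weeks. There was no group on another diet in these data.

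Vitamin A reaches the liver as retinol and retinyl esters. Hepatocytes bind retinol to retinol-binding protein for release into plasma, and hepatic stellate cells, the pericytes of the sinusoid, esterify it and hold it in lipid droplets, which they lose when they turn into collagen-producing myofibroblasts. Retinol is oxidised reversibly to retinal by retinol dehydrogenases and then irreversibly to retinoic acid by the ALDH1A retinaldehyde dehydrogenases, and retinoic acid acts on gene expression through the RAR and RXR nuclear receptors. From general knowledge, *Rbp4*, *Ttr*, *Rdh7*, *Rdh16*, *Aldh1a1* and *Stra6l* were treated as hepatocyte genes, *Lrat* and *Aldh1a2* as genes of stellate and other mesenchymal cells, and *Dhrs3* as a gene of both. Whole liver was sequenced, so fewer cells of a type and less RNA per cell cannot be told apart.

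Counts on genes summed to between 23090837 and 34089722 per mouse, and a count of 3 was worth 0.0734 to 0.152 CPM (the count scaled to the library size and edgeR's TMM factor). The labels number the samples within a genotype without naming animals. Each was read as a different mouse, and the p-values measure the spread between these samples only. The targeted gene *Shmt2* had 94.6, 109 and 94.0 CPM in SHMT2fl/fl mice 1, 2 and 3 and 24.9, 28.3 and 19.3 CPM in SHMT2HKO mice 1, 2 and 3, as the labels say. Of the 16089 genes tested by edgeR's quasi-likelihood test, 29.0% had a Benjamini-Hochberg adjusted p under 0.05, with 12.5% higher and 16.5% lower in SHMT2HKO livers. The scaling of the libraries enters every fold change. The ERCC spike-in RNAs held 1.475, 1.837 and 1.416% of all counts in SHMT2fl/fl mice 1 to 3. In SHMT2HKO mice 1 to 3 they held 2.748, 2.312 and 1.346%, so ERCC scaling is uneven within that genotype. With TMM the median gene had a log2 fold change of 0.03 and 43.2% of the called genes were higher, without TMM the median gene moved to -0.40 and 9.87% were higher, with the ERCC spike-in RNAs it moved to -0.69 and 3.73% were higher, and with upper-quartile factors it moved to -0.06 and 32.5% were higher.

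Of the 9 retinoid genes, 5 were higher in SHMT2HKO livers (*Rdh16*, *Aldh1a1*, *Rdh7*, *Ttr* and *Rbp4*), 1 was lower (*Aldh1a2*), and 3 did not pass the test (*Stra6l*, *Lrat* and *Dhrs3*). The genotypes did not overlap for 4 of the genes that were higher, where 21.9% of all genes lay apart in that direction, and for the gene that was lower, where 25.0% did (46.9% in either direction). The median log2 fold change was 0.78 over the 9 genes and 0.84 over the 6 hepatocyte genes, against 0.03 over all genes tested. The median of -1.88 over the 2 stellate genes lies between unlike values, 0.03 for *Lrat* and -3.79 for *Aldh1a2*. All 6 hepatocyte genes had a positive log2 fold change with TMM, but with ERCC scaling *Rbp4*, *Ttr* and *Stra6l* had values of -0.01, -0.06 and -0.48. Relative to the median gene under that scaling these were 0.68, 0.63 and 0.21. The number of the 9 genes called was 1 with ERCC scaling (*Aldh1a2*) and between 2 and 5 with 1 mouse left out. Without TMM it was 4, with *Rdh7* and *Aldh1a1* higher and *Aldh1a2* and *Dhrs3* lower. *Dhrs3* was not called with TMM.

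**Figure D1:**
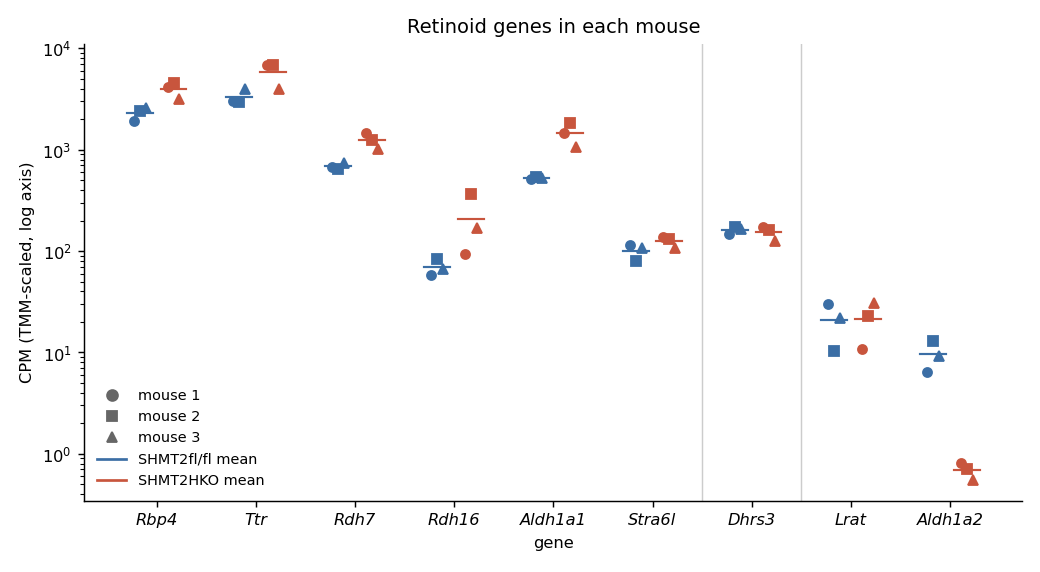
Level of each retinoid gene in each mouse, as TMM-scaled CPM on a log axis; blue symbols are SHMT2fl/fl mice, red symbols SHMT2HKO mice, the symbol shape gives the mouse number, which does not pair mice, and bars mark group means. Hepatocyte genes stand on the left, *Dhrs3* between the lines and the stellate genes on the right, where *Aldh1a2* falls from a mean of 9.56 to 0.689 CPM while the genotypes overlap for *Lrat*.

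The plasma carriers of retinol were both higher in SHMT2HKO livers with TMM scaling, though not with ERCC scaling. *Rbp4* (ENSMUSG00000024990, GRCm38 chr19:38116629-38125281, minus strand) encodes the retinol-binding protein that hepatocytes secrete. It had 1923, 2387 and 2581 CPM in SHMT2fl/fl mice 1 to 3 and 4125, 4563 and 3161 CPM in SHMT2HKO mice 1 to 3. Every SHMT2HKO mouse lay above every SHMT2fl/fl mouse, with the third SHMT2HKO mouse nearest to the controls. The log2 fold change was 0.78 (SE 0.21, 95% confidence interval 0.29 to 1.27, adjusted p = 0.0275 in edgeR's quasi-likelihood test, Benjamini-Hochberg). *Ttr* (ENSMUSG00000061808, chr18:20665280-20674321, plus strand) encodes transthyretin, the partner that holds the retinol-binding protein in plasma and keeps it from being filtered by the kidney. Its levels were 3044, 2953 and 4001 CPM in SHMT2fl/fl and 6800, 6899 and 3933 CPM in SHMT2HKO mice. The genotypes overlapped, because the third SHMT2HKO mouse lay below the third control. The log2 fold change of *Ttr* was 0.82 (SE 0.27, 95% confidence interval 0.21 to 1.43, adjusted p = 0.0498), close to the threshold. Over 15 alternative settings the adjusted p of *Rbp4* ranged from 0.000347 to 0.988 and that of *Ttr* from 0.00321 to 0.918. The call for *Rbp4* was lost without any of the 3 SHMT2fl/fl mice or without SHMT2HKO mouse 2 (log2 fold changes of 0.67 to 0.87), and that for *Ttr* without any mouse except SHMT2HKO mouse 3 (0.69 to 0.97).

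The carriers were set against each other. On the log2 scale *Rbp4* over *Ttr* was -0.66, -0.31 and -0.63 in SHMT2fl/fl and -0.72, -0.60 and -0.32 in SHMT2HKO mice, a difference of -0.01 (exact permutation test, two-sided, p = 0.9). The ratio does not depend on the scaling of the libraries, and its sign turned without SHMT2fl/fl mouse 2 or SHMT2HKO mouse 1 or 2 (0.10, 0.08 and 0.02). *Stra6l* (ENSMUSG00000028327, chr4:45848664-45887008, plus strand) encodes a liver receptor for the retinol-binding protein related to STRA6. It had 114, 80.3 and 108 CPM in SHMT2fl/fl and 137, 131 and 108 CPM in SHMT2HKO mice. The third mice of both genotypes had nearly the same level, and the groups overlapped. Its log2 fold change of 0.31 (SE 0.17, 95% confidence interval -0.07 to 0.69, adjusted p = 0.191) did not pass the test here or in any of the 15 alternatives. *Stra6* itself, the plasma retinol receptor of other tissues, had at most 0.552 CPM in any liver and was not tested.

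Both retinol dehydrogenases were higher in SHMT2HKO livers. *Rdh7* (ENSMUSG00000040134, chr10:127884028-127888817, minus strand) and *Rdh16* (ENSMUSG00000069456, chr10:127801152-127846565, plus strand) encode microsomal short-chain dehydrogenases that oxidise retinol and also act on steroids. *Rdh7* had 679, 648 and 736 CPM in SHMT2fl/fl and 1461, 1250 and 1028 CPM in SHMT2HKO mice. The groups lay apart, and the log2 fold change was 0.86 (SE 0.18, adjusted p = 0.0102). *Rdh16* was less abundant, with 58.4, 82.9 and 67.0 CPM in SHMT2fl/fl and 94.5, 363 and 168 CPM in SHMT2HKO mice. Its SHMT2HKO mice differed from each other more than its controls did, with a high value in the second. The log2 fold change of *Rdh16* was 1.58 (SE 0.45, 95% confidence interval 0.52 to 2.65, adjusted p = 0.0376), and without SHMT2HKO mouse 2 it was 0.92 (adjusted p = 0.0521). The call was also lost without any of the 3 SHMT2fl/fl mice or without SHMT2HKO mouse 3, and the adjusted p ranged from 0.000413 to 0.214 over the alternatives. For *Rdh7* it ranged from 1.63e-06 to 0.919, and the call was lost with ERCC scaling (0.06) and without SHMT2fl/fl mouse 2 (0.82, adjusted p = 0.0553).

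These dehydrogenases belong to a cluster of like genes on the same chromosome as *Shmt2* (chr10:127517123-127522444), with *Rdh16* lying 278.7 kb and *Rdh7* 361.6 kb from it. Of the 41 genes other than *Shmt2* tested within 500 kb of it, *Rdh16* and *Rdh7* included, 8 were higher, 6 were lower and 27 did not pass. Their median log2 fold change was 0.06. Over all genes tested 29.0% were called, 12.5% higher and 16.5% lower. Among other dehydrogenases of the cluster, *Rdh9* (0.83, adjusted p = 0.0869), *Rdh16f2* (1.03, adjusted p = 0.172) and *Hsd17b6* (-0.49, adjusted p = 0.144) did not pass, and *Sdr9c7*, whose enzyme belongs to the same family and acts in the skin barrier, was higher (2.14, adjusted p = 0.000943). *Rdh16f2* ranged from 16.6 to 83.1 CPM among SHMT2HKO mice, across all 3 of its controls. Reads from the cluster can be hard to assign. Of the 50-base stretches in the longest transcript, 13.2% of *Rdh7*, 15.8% of *Rdh16* and 92.3% of *Rdh9* also occurred in transcripts of other genes, and the pseudogene *Rdh18-ps* lies inside *Rdh16* on the same strand, so *Rdh16* and above all *Rdh9* are uncertain.

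**Figure D2:**
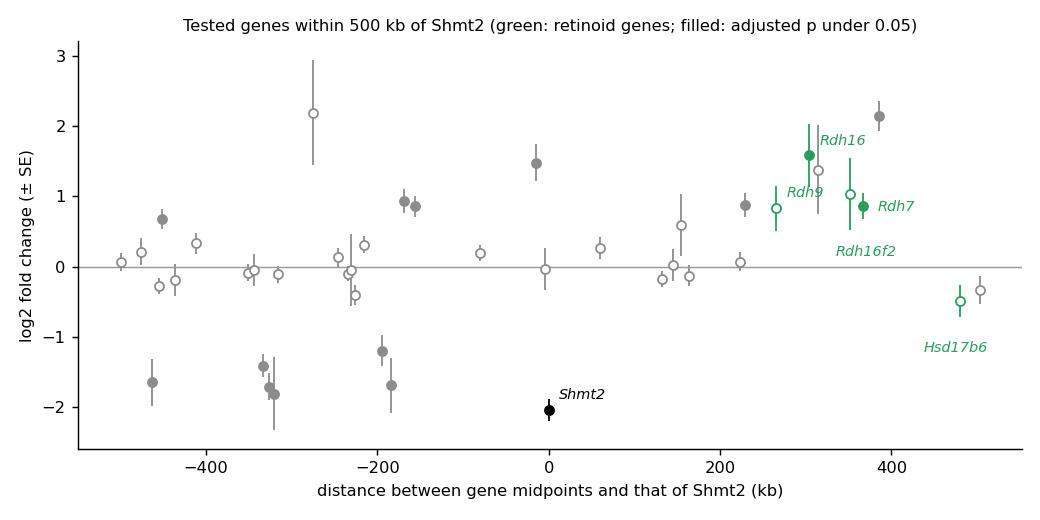
Log2 fold change (± SE) of every tested gene within 500 kb of *Shmt2*, against the distance between gene midpoints in kb. Green marks *Rdh9*, *Rdh16*, *Rdh16f2*, *Rdh7* and *Hsd17b6*, and filled circles an adjusted p under 0.05. *Sdr9c7* is among the grey genes. *Rdh16* and *Rdh7* lie above 0. The 41 neighbours, which include *Rdh16* and *Rdh7*, have a median of 0.06, and 27 of the 41 did not pass.

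The enzymes that make retinoic acid from retinal moved in opposite directions. *Aldh1a1* (ENSMUSG00000053279, chr19:20492715-20643465, plus strand) encodes the main cytosolic retinaldehyde dehydrogenase of hepatocytes, which also clears other aldehydes. It had 513, 543 and 525 CPM in SHMT2fl/fl and 1476, 1825 and 1074 CPM in SHMT2HKO mice. The controls were nearly alike and every SHMT2HKO mouse lay far above them. The fold change was 2.77 (log2 1.47, SE 0.21, 95% confidence interval 0.98 to 1.96, adjusted p = 0.0027). The call was lost in 1 of the 15 alternatives, ERCC scaling (0.65, or 1.34 above the median gene), and the adjusted p ranged from 2.39e-11 to 0.292. Of its 50-base stretches, 6.54% also occurred in its neighbour *Aldh1a7*, which was higher as well (0.81, adjusted p = 0.0242).

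*Aldh1a2* (ENSMUSG00000013584, chr9:71215789-71296243, plus strand) encodes the retinaldehyde dehydrogenase of mesenchymal and mesothelial cells, known for its role in the embryo. Its counts were 261, 347 and 354 in SHMT2fl/fl and 19, 14 and 14 in SHMT2HKO mice, or 6.39, 13.1 and 9.24 against 0.806, 0.709 and 0.551 CPM. The SHMT2HKO mice were alike and the lowest control was several times above the highest of them. The level was 13.8 times lower in SHMT2HKO livers (log2 fold change -3.79, SE 0.34, 95% confidence interval -4.56 to -3.02, adjusted p = 0.00083). It passed in all 15 alternatives, with adjusted p from 1.74e-20 to 0.00631, and with each mouse left out in turn it lay between -4.01 and -3.50. Among the 16089 genes tested it had the rank 38 from the largest decrease. The log2 ratio of *Aldh1a2* to *Aldh1a1* was -5.85 ± 0.48 (SD, n = 3) in SHMT2fl/fl and -11.0 ± 0.26 (SD, n = 3) in SHMT2HKO mice, a difference of -5.19 without overlap (two-sided exact permutation test p = 0.1, which is as small as 3 mice against 3 can give, and 0.233 after Benjamini-Hochberg adjustment over 7 partner ratios).

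The storage enzyme did not differ beyond the spread between mice. *Lrat* (ENSMUSG00000028003, chr3:82892579-82903973, minus strand) encodes lecithin retinol acyltransferase, which makes retinyl esters and is the usual transcript by which stellate cells are recognised in liver. It had 30.2, 10.3 and 22.1 CPM in SHMT2fl/fl and 10.7, 22.7 and 30.5 CPM in SHMT2HKO mice. The groups spanned the same range, with a low value in the second control and in the first SHMT2HKO mouse. The log2 fold change was 0.03 (SE 0.47, adjusted p = 0.975), and its 95% confidence interval of -1.08 to 1.13 spans a change of either sign of that size. It did not pass in any of 15 alternatives, and with 1 mouse left out it ranged from -0.35 to 0.39.

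*Dhrs3* (ENSMUSG00000066026, chr4:144892827-144928209, plus strand) encodes a retinal reductase that returns retinal to retinol and is itself induced by retinoic acid. Its levels were 147, 173 and 164 CPM in SHMT2fl/fl and 174, 163 and 124 CPM in SHMT2HKO mice. The groups overlapped, with the third SHMT2HKO mouse below the rest. The log2 fold change was -0.07 (SE 0.16, 95% confidence interval -0.43 to 0.29, adjusted p = 0.760). It passed in 1 of 15 alternatives, the library size without TMM (-0.51, adjusted p = 0.0130), where it lay 0.11 under the median gene, and the adjusted p ranged from there to 0.959. The log2 ratio of *Dhrs3* to *Rdh16*, the reducing to an oxidising enzyme, was 1.33, 1.06 and 1.29 in SHMT2fl/fl and 0.88, -1.15 and -0.43 in SHMT2HKO mice. The groups lay apart by a difference of -1.47 (exact permutation test, two-sided, p = 0.1, adjusted over the 7 partner ratios 0.233).

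Expressed per kilobase of exon, the plasma carriers were the most abundant of the 9 transcripts in controls. The mean levels in SHMT2fl/fl livers were 2810 CPM per kb for *Ttr*, 1710 for *Rbp4*, 409.7 for *Rdh7*, 107 for *Aldh1a1*, 55.2 for *Dhrs3*, 11.2 for *Rdh16*, 10.5 for *Stra6l*, 4.22 for *Aldh1a2* and 3.90 for *Lrat*. Of the neighbours in this order, *Rdh16* and *Stra6l* overlapped between mice, and so did *Aldh1a2* and *Lrat*. In SHMT2HKO livers the order differed only in that *Aldh1a2*, at 0.304 CPM per kb, lay below *Lrat* at 3.98, without overlap. There *Ttr* and *Rbp4* (4956 and 2941 CPM per kb) overlapped, and so did *Dhrs3* and *Rdh16* (52.5 and 33.5).

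To set the retinoid genes beside the cells that carry them, cell type marker lists were summed in each mouse. The 10 hepatocyte markers, led by *Alb*, summed to 60090 to 73020 CPM in SHMT2fl/fl and 70650 to 102900 CPM in SHMT2HKO livers. Of the 10, 3 were higher and 7 did not pass, among them *Tat* and *Ahsg* with negative log2 fold changes (-0.66 and -0.34). The 13 quiescent stellate markers summed to 374 to 391 CPM in SHMT2fl/fl and 348 to 542 CPM in SHMT2HKO livers. Within this list 5 were higher (*Colec10*, *Angptl6*, *Reln*, *Vipr1* and *Ecm1*), 3 were lower (*Pdgfrb*, *Hand2* and *Des*) and 5 did not pass. The 8 activated stellate markers summed to 1093 to 1153 CPM against 189 to 574 CPM, with 5 lower, the collagen genes *Col1a1*, *Col1a2* and *Col3a1* together with *Timp1* and *Lox*. *Acta2* (-0.59, adjusted p = 0.0963), *Tagln* (-0.23, adjusted p = 0.340) and *Postn* (-0.13, adjusted p = 0.789) did not pass. The collagen genes made up most of this sum, with means of 382, 241 and 454 CPM in SHMT2fl/fl livers, where the whole list had a mean of 1128 CPM. Of all 67 markers 14 were higher and 23 lower with TMM, 4 higher and 28 lower with ERCC scaling, and 6 higher and 32 lower without TMM. Over all genes tested with TMM, 12.5% were higher and 16.5% lower. No marker was at 0 in any liver.

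Other cell types moved too. The 6 cholangiocyte markers, among them *Krt19* and *Epcam*, summed to 171 to 304 CPM in SHMT2fl/fl and 25.7 to 37.4 CPM in SHMT2HKO livers, and all 6 were lower with a median log2 fold change of -3.04. The 9 portal fibroblast and mesothelium markers summed to 140 to 169 against 36.5 to 49.4 CPM, with 3 lower (*Eln*, *Fbln2* and *Entpd2*), and the 5 lymphocyte markers to 12.0 to 16.8 against 3.34 to 3.62 CPM, with 3 lower. The mesothelial markers *Msln*, *Upk3b* and *Wt1* had log2 fold changes of -0.68, -0.26 and -0.90 and did not pass. *Msln* and *Upk3b* were highest in SHMT2fl/fl mouse 1 (3.60 and 4.11 CPM). With 1 mouse left out their log2 fold changes reached 0.82 and 1.89. *Lrrn4*, *Gpm6a* and *Thy1* of this list (-1.3, -0.4 and -1.1) did not pass either. Of the 7 endothelial markers 3 were higher, and of the 9 Kupffer cell and macrophage markers 3 were higher and 3 lower. These counts stand beside 12.5% of all genes tested that were higher and 16.5% that were lower.

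Set against the quiescent stellate sum, the stellate genes split. The log2 ratio of *Lrat* to that sum was -3.69, -5.18 and -4.11 in SHMT2fl/fl and -5.03, -4.37 and -4.15 in SHMT2HKO mice, a difference of -0.19 that turned to 0.13 without SHMT2fl/fl mouse 1 and to 0.07 without SHMT2HKO mouse 1 (exact permutation test, two-sided, p = 0.7). That of *Aldh1a2* was -5.93, -4.84 and -5.37 against -8.76, -9.37 and -9.94, a difference of -3.97 without overlap (exact permutation test, two-sided, p = 0.1, adjusted over 4 ratios 0.2). For *Dhrs3* the ratio was -1.41, -1.11 and -1.22 against -1.01, -1.52 and -2.12. Its difference of -0.3 came with overlap (exact permutation test, two-sided, p = 0.5, adjusted over the same 4 ratios 0.667).

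The choice of stellate list decided the size of these ratios. Against the activated list the difference was -1.93 for *Aldh1a2*, 1.86 for *Lrat* and 1.74 for *Dhrs3*. *Aldh1a2* was lower relative to the sum of each of the other lists as well, with differences from -4.34 against endothelial markers and -1.87 against portal fibroblast and mesothelium markers to -0.86 against cholangiocyte markers, where the ratio was -4.74, -4.54 and -4.51 in SHMT2fl/fl and -5.10, -5.18 and -6.08 in SHMT2HKO mice. Each of the 6 ratios of *Aldh1a2* to a list other than the quiescent and hepatocyte ones lay apart between genotypes (exact permutation test, two-sided, p = 0.1). With the mean log2 CPM of the markers in place of their sum the activated stellate difference of *Aldh1a2* was -2.45. By the same measure the portal fibroblast and mesothelium difference was -2.57 and the cholangiocyte difference -0.65. Without SHMT2HKO mouse 3 the cholangiocyte difference from the sums was -0.54. The part of cell numbers in the lower level of *Aldh1a2* was not tested.

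**Figure D3:**
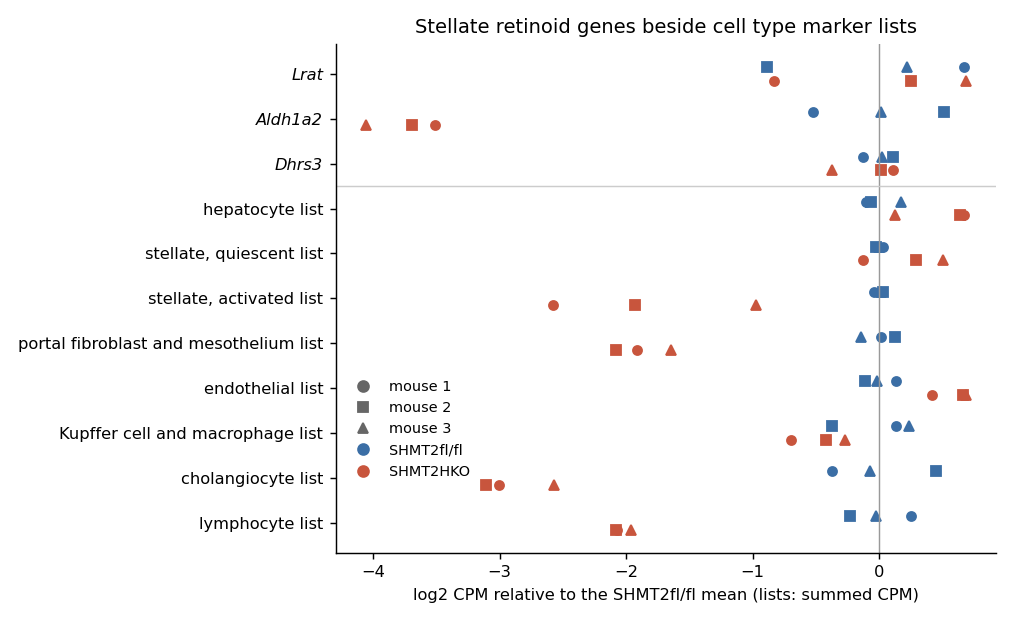
Log2 level of *Lrat*, *Aldh1a2* and *Dhrs3* and of 8 summed marker lists in each mouse, relative to the SHMT2fl/fl mean; blue is SHMT2fl/fl, red is SHMT2HKO, and the symbol shape gives the mouse number. *Aldh1a2* in SHMT2HKO mice lies farther left than any list, and *Lrat* spans both sides of 0 in both genotypes.

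The hepatocyte genes were also set against the hepatocyte sum, which was itself higher in SHMT2HKO livers by 0.48 on the log2 scale. Relative to it *Aldh1a1* was higher by 0.96, *Rdh7* by 0.37, *Ttr* by 0.31 and *Rbp4* by 0.30, each without overlap between genotypes, and *Dhrs3* was lower, with a difference of -0.56 (each exact permutation test, two-sided, p = 0.1, adjusted over 9 ratios 0.15). For *Ttr* the groups lay apart only narrowly, with -4.19 in the nearest SHMT2fl/fl and -4.17 in the nearest SHMT2HKO mouse. *Rdh16* (0.91, p = 0.3), *Stra6l* (-0.15, p = 0.7) and *Lrat* (-0.44, p = 0.6) overlapped in the same exact permutation test. These ratios do not depend on the scaling of the libraries.

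Beyond these genes, 50 others of the retinoid pathway were examined, of which 39 had enough counts to test. Of the 39, 14 were higher and 2 lower in SHMT2HKO livers, where 12.5% of all genes tested were higher and 16.5% lower. Their median log2 fold change was 0.45, against 0.03 for all genes. The 10 hepatocyte markers had a median of 0.59, with 8 of the 10 above 0. Among genes of ester storage and hydrolysis 2 of 4 were higher, *Pnpla3*, a lipase that can release retinol from its esters (2.85, adjusted p = 0.00434), and *Lipe*, hormone-sensitive lipase (1.09, adjusted p = 0.00369). *Pnpla3* had 1.03, 0.828 and 1.75 CPM in SHMT2fl/fl and 6.49, 14.7 and 5.12 CPM in SHMT2HKO mice, which did not overlap. *Dgat1* (0.27, adjusted p = 0.139) and *Pnpla2* (0.11, adjusted p = 0.658) did not pass. The carotenoid-cleaving *Bco2* was higher (1.03, adjusted p = 0.00504), and *Bco1*, which cleaves carotene to retinal, was not called (0.56, adjusted p = 0.0593).

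The oxidising and reducing steps held several more genes that were higher, where 12.5% of all genes tested were higher. Of 10 retinol oxidation genes tested, 4 passed, the alcohol dehydrogenases *Adh7* (1.37), *Adh4* (1.12) and *Adh1* (0.90) and the retinol dehydrogenase *Rdh10* (0.69), the other 6 did not, and 4 more of the list had too few counts. Of 4 retinal reduction genes tested, *Dhrs4* (0.85, adjusted p = 0.00411) and *Rdh14* (0.38, adjusted p = 0.0383) were higher, the last turning to -0.35 with ERCC scaling and -0.04 without TMM. Of 5 further retinoic acid synthesis genes, *Aldh8a1* (0.82) and *Aldh1a7* passed, and *Aldh1a3*, *Aox1* and *Aox3* did not. Of the cellular binding proteins, 4 of 6 had too few counts, and *Fabp5*, which can carry retinoic acid, was higher (1.38, adjusted p = 0.0134). With ERCC scaling 4 of the 39 passed, 1 higher (*Pnpla3*) and 3 lower (*Rarg* and *Cyp26a1* among them).

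Among all genes tested 29.0% passed, in either direction. Of the 6 receptors 2 passed, in opposite directions. Among them *Rarg* was lower (-1.38, SE 0.19, adjusted p = 0.00225) with 26.6, 31.1 and 31.0 CPM in SHMT2fl/fl and 8.23, 13.1 and 12.9 CPM in SHMT2HKO mice. *Rxrg* was higher (0.74, adjusted p = 0.0297), while *Rxra*, the main retinoid X receptor of hepatocytes (0.45, adjusted p = 0.0535), *Rara* (0.18, adjusted p = 0.232), *Rarb* (-0.36, adjusted p = 0.454) and *Rxrb* (0.09, adjusted p = 0.577) did not pass. Of 6 genes known to be induced by retinoic acid that could be tested, 1 passed, *Rarres1*, which was higher (2.05, SE 0.21, adjusted p = 0.00105), with 52.7, 31.5 and 38.3 against 199, 161 and 147 CPM. *Cyp26a1*, the enzyme that clears retinoic acid and a direct target of its receptors, had 4.82, 2.86 and 5.72 CPM in SHMT2fl/fl and 2.25, 3.34 and 1.54 CPM in SHMT2HKO mice. The groups overlapped and the log2 fold change of -0.92 (SE 0.36) did not pass (adjusted p = 0.0889, range over alternatives 0.0177 to 0.285). *Cyp26b1* (-0.22, adjusted p = 0.778) and *Tgm2* (-0.42, adjusted p = 0.0720) did not pass either.

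**Figure D4:**
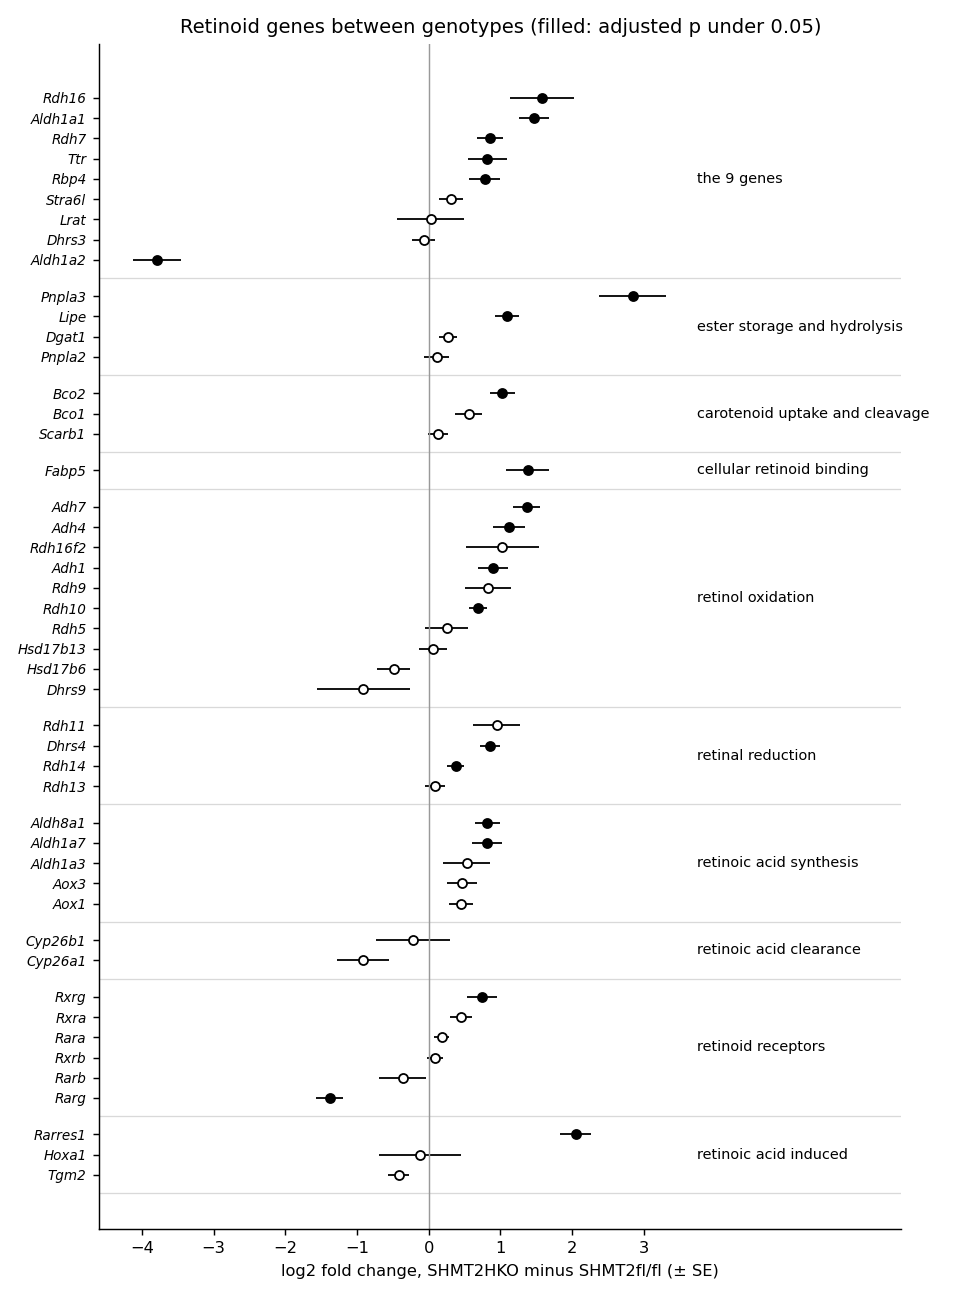
Log2 fold change (± SE) between SHMT2HKO and SHMT2fl/fl livers of the 9 genes described first (top block) and of other tested retinoid genes by step of the pathway; filled circles have an adjusted p under 0.05 by edgeR's quasi-likelihood test. Most filled circles lie right of 0 with TMM scaling, and *Aldh1a2* and *Rarg* lie left of it; with ERCC scaling the median of all genes shifts to -0.69.

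Retinoic acid receptors bind repeats of a short half-site. Promoter windows from 250 bases before to 50 after the RefSeq gene start (GRCm38.p6) were searched on both strands for direct repeats of AGGTCA or AGTTCA (mixed pairs included) with 1, 2 or 5 bases between them. Of 32851 windows of the genome, 0.161% held one. Among the 9 genes, 8 had windows, 14 in all, and none held the motif by these letters. Among all 59 retinoid genes 45 had a window, and 2 genes held a repeat, *Cyp26a1* with 5 bases between the half-sites and *Bco1* with 1. They are shown because they are the matches nearest to the genes above, on the plus strand in the direction of transcription, with the half-sites, which read on the opposite strand, in capitals.
Cyp26a1 (chr19:37697728-37697807): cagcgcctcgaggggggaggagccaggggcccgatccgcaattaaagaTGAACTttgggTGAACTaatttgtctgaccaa
Bco1 (chr8:117095785-117095864): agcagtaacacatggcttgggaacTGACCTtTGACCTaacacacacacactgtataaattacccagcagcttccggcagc
Neither *Cyp26a1* nor *Bco1* passed the test between genotypes, with log2 fold changes of -0.92 and 0.56. A match describes the letters only, and the binding of a receptor was not measured.

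Levels across the 6 livers were compared between each of the 9 genes and 11735 well-measured genes, as a description over 6 libraries that share their genotype split and scaling. Of the hepatocyte genes that were higher, *Rdh16* had r from 0.633 to 0.823 with the other 4, while among those 4 (*Rbp4*, *Ttr*, *Rdh7* and *Aldh1a1*) r lay between 0.904 and 0.958. Among the genes most like *Aldh1a1* were *Gpi1* and *Skp1a* (r of 0.9996 and 0.9993), and 739 genes reached 0.95. The genes most like *Aldh1a2* were *Trip6*, *Zfp13* and *Arhgef10* (r = 0.9983), with 569 genes at 0.95 or above. *Lrat* had few companions, with 6 genes at 0.95 or above, led by *Pyroxd2* (0.984), *Chmp1b* (0.977) and *Slc16a6* (0.971). *Dhrs3* and *Stra6l*, which were not called between genotypes either, also had few, with 23 and 31 genes. For *Stra6l* the closest were *Slc35d2*, *Cecr2* and *Lgr5*, for *Dhrs3* *Cby1*, *Zfp3* and *Rpl7a*, for *Rbp4* *Poldip2*, *Vdac1* and *Chchd10*, for *Ttr* *Rex1bd*, *Bola1* and *Gins1*, for *Rdh7* *Tprkb*, *Ldhd* and *Proz*, and for *Rdh16* *Pctp*, *Pgam1* and *Eno1*.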

How the data were processed

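Total liver RNA of 6 mice was sequenced by the authors as read pairs (NEBNext Ultra kit, Illumina HiSeq). They trimmed reads with Trimmomatic 0.36, aligned them with STAR 2.5.2b to GRCm38 plus ERCC, and took unique hits per gene, with Subread 1.5.2 in the submitters' processing notes. The deposited values are these raw counts, without normalization. The use of strand and the handling of overlapping genes are not given in the sources used here, so *Lrat*, *Aldh1a1* and *Aldh1a2*, which overlap a gene on the opposite strand, may hold some of its reads. The labels WT and KO were read as SHMT2fl/fl and SHMT2HKO.

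The table held 49671 genes and 92 ERCC RNAs, and the latter entered neither library sizes nor tests. Of the gene IDs, 345, with 0.0416% of counts, had no entry in GENCODE M21, which gave symbols, positions and exon lengths. edgeR 4.0.16 served for the filter (filterByExpr), the TMM scaling and a robust quasi-likelihood F test of genotype. Adjusted p-values are Benjamini-Hochberg values of this test over 16089 genes. CPM use TMM-scaled library sizes. Confidence intervals of fold changes are at 95%. For log2 ratios an exact permutation test enumerated the 20 assignments of mice. Every pair of mice of a genotype differed by more than counting noise, which gives no sign of a library deposited more than once, and each was counted as 1 sample. The 15 alternatives were DESeq2 1.42.0, limma-voom 3.58.1, other scalings, filters and dispersions, a replicate block and leaving out each mouse. The code was tested on simulated data.

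The 9 genes and all lists, compiled from general knowledge, were chosen with earlier results of these data known. Named genes are the 9, *Shmt2*, the list genes, the 3 genes most like each of the 9 (mean log2 CPM of at least 1), and called genes within 500 kb of *Shmt2*, of which only dehydrogenases are named. Some results of this rule are not reported here. The ratios of *Aldh1a2* to lists other than the quiescent stellate and hepatocyte ones were chosen after seeing the data, as was running the alternatives on markers and other retinoid genes.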

Additional observations from a re-analysis of the deposited data

How the results depend on the processing

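*Aldh1a2* passed under all 15 alternatives and *Lrat* and *Stra6l* under none. The genes called over the whole table numbered 4663 (2012 higher, 2651 lower), with 2866 (107 and 2759) under ERCC scaling, 5462 (539 and 4923) without TMM, and from 2426 (without SHMT2fl/fl mouse 3) to 5597 (without SHMT2HKO mouse 3) with 1 mouse left out. Of the 9 genes 6 were called, 1 under ERCC scaling and 2 to 5 with 1 mouse left out (2 without SHMT2fl/fl mouse 2, 3 without SHMT2fl/fl mouse 1 or 3 or SHMT2HKO mouse 2). Of the other retinoid genes 16 were called, 4 under ERCC scaling and 11 to 21 with 1 mouse left out. Of 67 markers 37 were called, and 27 to 43 with 1 mouse left out. The lowest log2 fold changes over the alternatives of the markers called higher *Apob*, *Serpinc1* and *Stab2* were -0.07, -0.12 and -0.15. Replicate numbers did not pair the mice (correlations of deviations -0.0459, 0.0125 and -0.0766). With the number as a block, 3584 genes and 4 of the 9 were called, where *Rbp4* (0.78, adjusted p = 0.0791) and *Ttr* (0.79, adjusted p = 0.134) did not pass, and 15 other retinoid genes and 34 markers. Signs turned under ERCC scaling for *Rbp4* (-0.01), *Ttr* (-0.06) and *Rdh14* (-0.35), without TMM for *Rdh14* (-0.04), for the uncalled *Stra6l* and *Lrat* under both (-0.48 and -0.55 with ERCC, -0.12 and -0.37 without TMM), for *Lrat* over the quiescent sum without SHMT2fl/fl mouse 1 (0.13) or SHMT2HKO mouse 1 (0.07; range -0.61 to 0.13) and against the activated list (1.86), for *Dhrs3* against the activated list (1.74), for *Lrat* over the hepatocyte sum without SHMT2HKO mouse 1 (range -0.94 to 0.09), and for *Rbp4* over *Ttr* as given above (0.10, 0.08 and 0.02; range -0.12 to 0.10). The fold change of *Lrat*, 0.03 in the main fit, also turned with limma-voom (-0.01), upper-quartile factors (-0.07) and at least 10 counts in every sample (-0.02). It turned as well without SHMT2fl/fl mouse 2 (-0.30), SHMT2HKO mouse 2 (-0.02) or SHMT2HKO mouse 3 (-0.35). *Dhrs3* turned to 0.04 without SHMT2HKO mouse 3. For leave-outs the spread rests on fewer mice, and otherwise the cause was not tested. Per kilobase of the longest transcript *Aldh1a1* came to 224 and *Rdh16* to 21.1 CPM per kb in SHMT2fl/fl livers. Depth limits the 9 genes little, since their smallest count was 14, but 11 of the 50 other retinoid genes had too few counts to test. Intervals cover the spread between these mice only.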
